A study of Mus musculus with 4 samples.

Results

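DNA polymerases copy the genome, and their proofreading and the repair pathways behind them shape which mutations a tumour collects. Variants of 8 genes of this machinery were taken from the variant lists of MBT2 and LM8 by the gene symbol in the annotation: Pole, Pold1, Msh3, Ogg1, Recql4, Rad54l, Fanca and Ercc3. They had 19 listed variants in MBT2 and 19 in LM8, which is 38 of 11806 listed variants and 28 distinct ones of 10545. The lists name 5614 genes in all. The bladder cancer line MBT2 (label #63 in its titles) was kept in RPMI-1640 and the osteosarcoma line LM8 in MEM with HEPES. Both are syngeneic with C3H/HeN mice, had 10% serum and no treatment, and gave 2 directional poly(A) RNA libraries each, which the labels do not describe as separate cultures. No normal sample was used in calling, so inherited differences of the C3H/HeN strain cannot be told apart from mutations.

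Pole and Pold1 carry the catalytic and proofreading domains of the leading- and lagging-strand polymerases. Human tumours with changes in the proofreading domain of POLE are known for many C>A changes, often at a cytosine between thymines. Ogg1 removes oxidised guanine, which pairs with adenine when left in place and then gives G>T, the same class as C>A read on the other strand. The study set the mutational burden of the lines side by side, and of the 6 substitution classes C>A had the odds ratio between the lists farthest from 1, over all private substitutions, so each variant below was also read for its class.

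Most entries were not substitutions. MBT2 had 17 deletions of 21 or more bases and 2 substitutions, and LM8 had 15 such deletions, 3 substitutions and 1 insertion. The 5 substitutions are shown first because they are the entries that can be set beside the C>A class; the codon they change stands in capitals within the reference transcript (GENCODE release M21, RNA strand, 5′ to 3′).
Pole W1166*: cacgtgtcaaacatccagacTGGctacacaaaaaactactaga
Pold1 R222H: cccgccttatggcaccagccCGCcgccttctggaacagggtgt
Msh3 R1019: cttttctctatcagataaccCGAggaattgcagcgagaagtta
Msh3 A204T: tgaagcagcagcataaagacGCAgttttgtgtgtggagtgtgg
Rad54l E470V: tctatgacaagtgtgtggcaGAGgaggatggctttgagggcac

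The deleted bases are shown for their ends. The first 2 sequences are whole listed deletions on the RNA strand with their first and last 2 bases in capitals, and the last 2 are longer Recql4 deletions in which capitals mark the bases that a shorter listed deletion leaves in the RNA (deposited lists, GRCm39, minus strand).
Recql4 74-base deletion, chr15:76589317-76589390: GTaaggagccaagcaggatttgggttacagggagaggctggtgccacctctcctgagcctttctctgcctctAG
Pold1 87-base deletion, chr7:44183221-44183307: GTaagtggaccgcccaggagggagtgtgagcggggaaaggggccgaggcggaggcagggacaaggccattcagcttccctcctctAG
Recql4 124-base deletion, chr15:76590493-76590616: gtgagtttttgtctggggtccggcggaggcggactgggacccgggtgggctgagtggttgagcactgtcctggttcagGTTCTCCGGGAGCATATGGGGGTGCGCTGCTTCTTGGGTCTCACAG
Recql4 88-base deletion, chr15:76588845-76588932: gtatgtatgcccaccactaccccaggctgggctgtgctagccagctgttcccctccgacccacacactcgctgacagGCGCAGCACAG
Each begins with GT and ends with AG, the ends of most introns. Where an alignment can place a deletion in several ways, it was moved by up to 5 bases to find these ends; the Pold1 87-base and the Recql4 88-base deletions were moved by 1 base, and their coordinates are those listed.

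At the listed sites the MBT2 libraries held 742698 and 790762 reads and the LM8 libraries 596298 and 571088. Sites of the 8 genes had 33 to 190 reads per library in MBT2 and 23 to 167 in LM8. Fisher's exact test (two-sided) between the libraries of a line called 0% of MBT2 sites and 0% of LM8 sites after Benjamini-Hochberg adjustment over the list, and 3.76% of MBT2 sites and 3.89% of LM8 sites at an unadjusted p under 0.05. Of the sites of the 8 genes, 2 of 19 in MBT2 (the Recql4 74-base and the Rad54l 91-base deletions) and 1 of 19 in LM8 (the Fanca 90-base deletion) lay under that unadjusted limit. These tests count reads and not cultures, and intervals below (exact Clopper-Pearson, 95%) cover counting error only. Variant lists give no expression levels, so the labelled cell types could not be checked by marker levels. Of 12 epithelial and urothelial markers, 0 had a listed variant in MBT2 and 0 in LM8. Of 12 osteoblast and mesenchymal markers, 0 had one in MBT2 and 3 in LM8, and nothing is read from these counts.

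**Figure D1:**
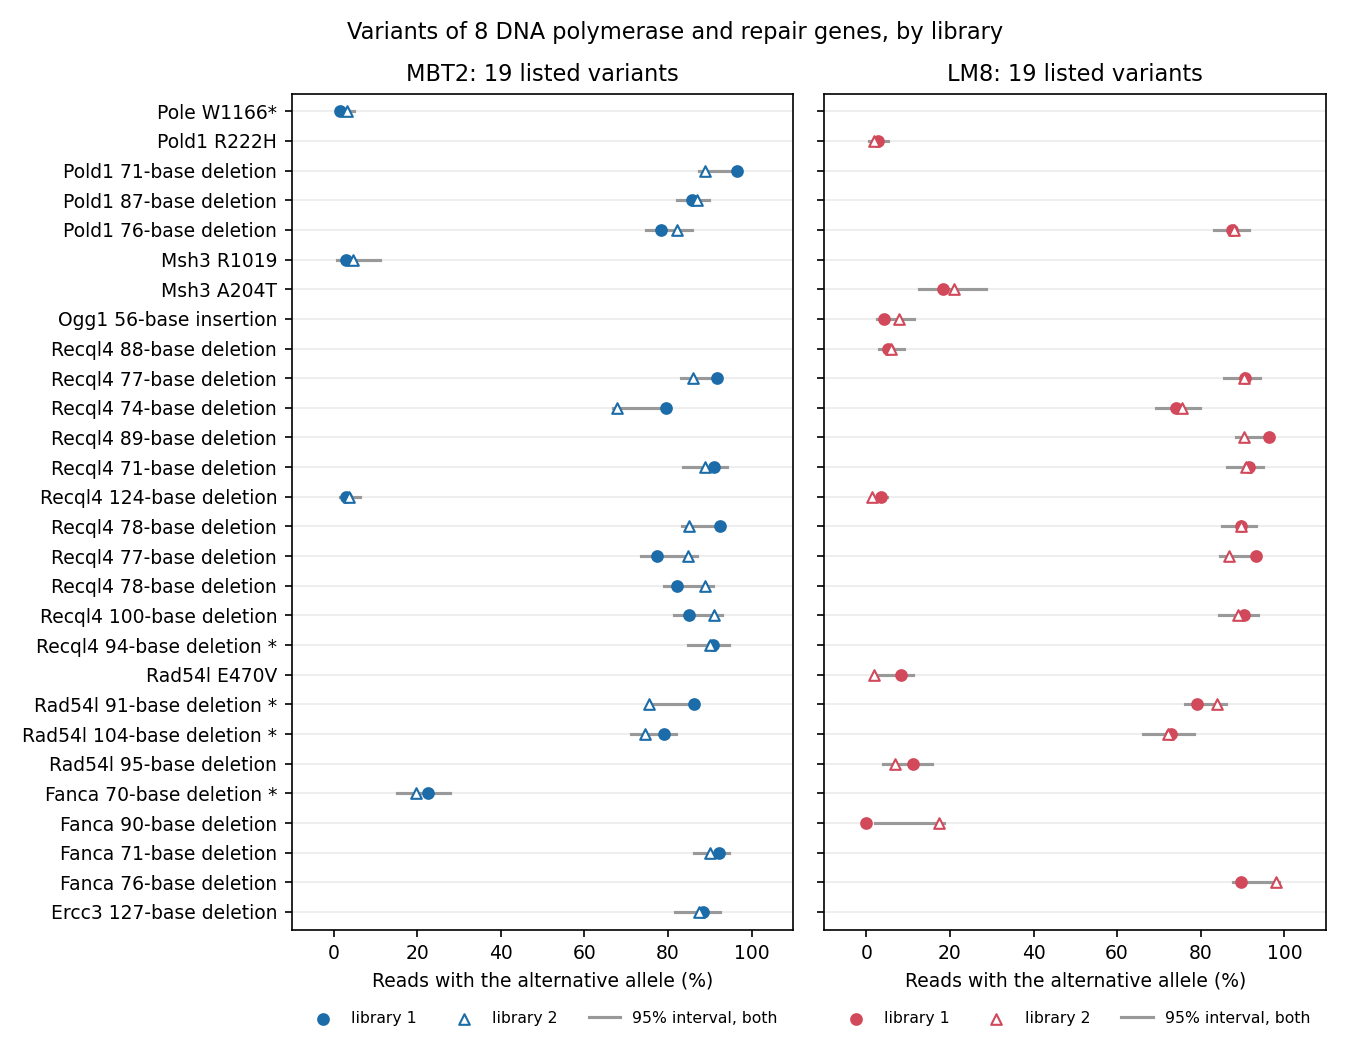
Percent of reads with the alternative allele (x axis) for each distinct variant of the 8 genes (rows), MBT2 left and LM8 right; circles and triangles are libraries 1 and 2 and grey lines 95% intervals over both. Asterisks after a deletion mark reads of the opposite strand. The 14 deletions on the gene's own strand that most reads carry span 67.8 to 98.0% in single libraries, and no substitution lies above 21.1%.

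Pole W1166*, in exon 29 of the gene for the catalytic subunit of polymerase epsilon (chr5:110460810), was listed in MBT2 only. It had 2 of 139 reads in library 1 and 4 of 122 in library 2, which is 2.30% over both (95% interval 0.848 to 4.94). The stop lies past the proofreading exonuclease domain. All 6 alternative reads ran in the reverse direction, and their median distance of the variant from a read end was 1 base. LM8 had 0 listed Pole variants.

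Pold1, which encodes the catalytic subunit of polymerase delta, carried R222H in exon 6 in LM8 only (chr7:44191165). The alternative allele had 3 of 111 and 2 of 112 LM8 reads, 2.24% over both (95% interval 0.732 to 5.15). The residue lies ahead of the exonuclease domain. Its 5 alternative reads all ran forward with a median distance of 1 base from a read end, as for Pole in MBT2. The other Pold1 entries were deletions. One of 71 bases (chr7:44182723-44182793) had 81 of 84 and 105 of 118 reads, and the 87-base one 121 of 141 and 165 of 190 reads, both in MBT2 only. One of 76 bases (chr7:44183911-44183986) stood in both lists. The 71-, 87- and 76-base deletions each had the length of an annotated Pold1 intron, and the bases of the 71- and 87-base ones stand in Pold1 transcripts annotated as retained introns. An intron of the neighbour Nr1h2, on the strand of the reads, also has 76 bases, and introns were matched by length and not by place.

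Msh3, a mismatch repair subunit that binds insertion and deletion loops, had 1 substitution per line. In MBT2, the synonymous change at R1019 in exon 23 (chr13:92352097) had 1 of 33 and 2 of 43 reads, 3.95% over both (95% interval 0.822 to 11.1). The 3 reads all ran forward with a median distance of 1 base from a read end. In LM8, A204T in exon 4 (chr13:92485713) had 9 of 49 and 12 of 57 reads, 19.8% over both (95% interval 12.7 to 28.7). It was the only substitution of the 8 genes at 10% or more in either line, and the only one with alternative reads in both directions, 6 forward and 15 reverse. Its median distance from a read end was 20 bases.

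Rad54l, a DNA-dependent ATPase of homologous recombination, carried E470V in exon 13 in LM8 only (chr4:115956911). The allele had 5 of 60 reads in library 1 and 1 of 53 in library 2, 5.31% over both (95% interval 1.97 to 11.2), so library 1 gave most of it. All 6 reads ran forward, the median distance from a read end was 4 bases, and the alternative base had a median quality of 23 against 33 for the reference base. The other 4 substitutions had alternative-base qualities of 33 to 44.

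Low-fraction substitutions of the whole lists often had the same read support. Of substitutions under 10%, 40.9% in MBT2 and 40.7% in LM8 had a median distance of at most 1 base from a read end, and 71.6% in MBT2 and 69.6% in LM8 had alternative reads in 1 direction only. Of substitutions at 10% or more, 8.72% in MBT2 and 11.3% in LM8 had such a distance, and 26.7% in MBT2 and 37.0% in LM8 such reads. The caller's filter allowed a median distance of 1 base, per the file headers. The part of read ends in the Pole, Pold1 and Msh3 R1019 calls was not tested.

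Ogg1, the glycosylase for oxidised guanine, had no substitution listed in either line. Its 1 entry was an insertion of 56 bases in LM8 at chr6:113305442, in codon 85 of exon 2, with 3 of 70 and 5 of 64 reads (5.97% over both, 95% interval 2.61 to 11.4). The inserted bases are shown because they match Ogg1 itself (deposited list, plus strand).
Ogg1 insertion: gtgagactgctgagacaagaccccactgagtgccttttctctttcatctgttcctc
These are bases 3 to 58 of exon 3 in the transcript ENSMUST00000032406, and 3 of 7 annotated Ogg1 transcripts hold them. The 4 forward and 4 reverse reads had a median distance of 14 bases from a read end. The annotation calls the insertion a frameshift, and MBT2 had 0 Ogg1 entries.

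Recql4, a RecQ-family DNA helicase with roles in replication start and in break repair, held 9 of the 19 MBT2 entries and 9 of the 19 LM8 entries, all of them long deletions, and 7 stood in both lists. Human RECQL4 is known for its many very short introns. In the mouse annotation 15 of 23 Recql4 introns have at most 127 bases, the length of the longest deletion of the 8 genes, against 10 of 30 in Pold1, 7 of 49 in Pole, 6 of 49 in Fanca, 3 of 20 in Rad54l, 1 of 35 in Msh3, 1 of 16 in Ercc3 and 0 of 11 in Ogg1. Deletions read from the gene's own strand numbered 8 in MBT2 and 9 in LM8 for Recql4, and 3 in MBT2 and 1 in LM8 for Pold1. Pole, with 7 introns of this length, had 0 in either line.

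**Figure D2:**
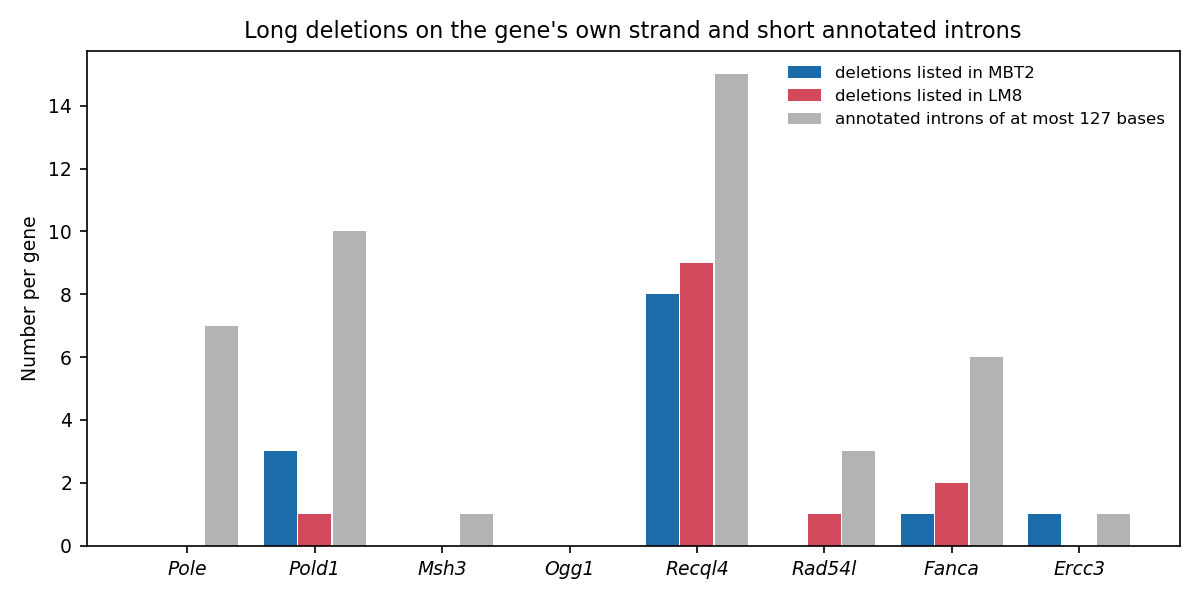
Number per gene (y axis) of long deletions read from the gene's own strand in MBT2 (blue) and LM8 (red), and of annotated introns of at most 127 bases (grey), for the 8 genes (x axis). Recql4 has the most of all 3, with 8 deletions in MBT2, 9 in LM8 and 15 such introns.

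All 22 distinct long deletions of the 8 genes, of 70 to 127 bases, read GT at the start and AG at the end on the strand of their reads, after a move of 0 to 5 bases. Of the long deletions of the whole lists whose reads give a strand, 94.1% in MBT2 and 93.6% in LM8 did, and 0.248% in MBT2 and 0.429% in LM8 did so on the opposite strand. Of the 22, 18 came from reads of the gene's own strand and 4 from the opposite one. The own-strand deletions fell into a common and a rare kind. In 14, most reads lacked the bases (73.3 to 95% over both libraries of a line), and all 14 had the length of an annotated intron of their gene. In the other 4, 2.48 to 8.65% of reads lacked them, and 3 of these had no intron of that length.

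Within Recql4, 7 common deletions per line left reads that still hold the bases. The share of such reads had a median of 12.1% in MBT2 and 10.1% in LM8. The 74-base intron, printed above, had the highest share over both libraries of each line. It was 20.4% and 32.2% of reads in the MBT2 libraries, against 25.9% and 24.4% in the LM8 libraries. In MBT2 library 1 the 77-base deletion at chr15:76590804-76590880 stood above it, at 22.7% (15.3% in library 2), so library 2 sets the order in MBT2. That is 26.7% in MBT2 and 25.2% in LM8 over both libraries, and the next highest were 19% in MBT2 and 10.3% in LM8. Its bases are also part of an annotated Recql4 transcript of the nonsense-mediated decay type. The MBT2 libraries spread wider at this site than the LM8 libraries, and the ranges of the lines overlap.

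Apart from that 77-base deletion, the other common Recql4 deletions were carried by more of the reads than the 74-base one in every library of their line. Another 77-base one (chr15:76588856-76588932) had 77 of 84 and 86 of 100 reads in MBT2, against 97 of 107 and 93 of 103 in LM8. A 71-base one (chr15:76590287-76590357) had 60 of 66 and 71 of 80 reads in MBT2, against 88 of 96 and 80 of 88 in LM8. The libraries of the lines lie close together at both. A 78-base deletion (chr15:76590537-76590614) had 86 of 93 and 86 of 101 reads in MBT2, against 113 of 126 and 96 of 107 in LM8. A 100-base deletion (chr15:76592634-76592733) had 63 of 74 and 61 of 67 reads in MBT2, against 85 of 94 and 81 of 91 in LM8. Each line also had a common deletion of its own in the list. In MBT2 it was another of 78 bases (chr15:76591373-76591450), with 60 of 73 and 72 of 81 reads, and in LM8 one of 89 bases (chr15:76590056-76590144), with 81 of 84 and 85 of 94 reads.

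The 124-base and 88-base Recql4 deletions enclose common ones. The 124-base deletion had 4 of 130 and 5 of 135 reads in MBT2 (3.4% over both) against 6 of 167 and 2 of 155 in LM8 (2.48%). It starts at the same base as a 78-base deletion, which 88.7% of reads carried in MBT2 and 89.7% in LM8, and takes 46 further bases, the capitals in the sequence above. The 88-base deletion was listed in LM8 only, with 7 of 135 reads in library 1 and 8 of 135 in library 2 (5.56%, 95% interval 3.14 to 9.0). It starts with the 77-base deletion that 88.6% of reads carried in MBT2 and 90.5% in LM8, and takes 11 bases more. Neither 46 nor 11 is a multiple of 3. The annotation holds 1 Recql4 intron of 88 bases. Introns were matched by length and not by place, so whether it is the same stretch was not tested.

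Rad54l and Fanca had the other rare own-strand deletions, both in LM8 only. The Rad54l deletion of 95 bases in exon 1 (chr4:115980346-115980440), ahead of the coding start, had 5 of 45 and 4 of 59 reads (8.65%, 95% interval 4.03 to 15.8). Fanca, a core subunit of the Fanconi anaemia complex that acts on crosslinked DNA, had a deletion of 90 bases (chr8:123996202-123996291) with 0 of 29 reads in library 1 and 4 of 23 in library 2 (7.69%, 95% interval 2.14 to 18.5). It rests on library 2 alone: without that library it has no alternative read. Its bases stand in a Fanca transcript annotated as a retained intron. The common Fanca deletions were one of 71 bases in MBT2 (chr8:124001136-124001206), in 94 of 102 and 90 of 100 reads, and one of 76 bases in LM8 (chr8:124021795-124021870), in 26 of 29 and 50 of 51 reads.

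Ercc3, the XPB helicase of the repair and transcription factor TFIIH, had 1 entry, in MBT2: a 127-base deletion on chromosome 18 in 69 of 78 and 69 of 79 reads (87.9%, 95% interval 81.7 to 92.6). It has the length of the 1 Ercc3 intron that short. LM8 had 0 Ercc3 entries.

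The 4 deletions from opposite-strand reads carried the symbol of a member but the intron length of a neighbour on the other strand. Rad54l deletions of 91 and 104 bases, annotated as downstream of the gene and found in both lines, match introns of Lrrc41. The 91-base one had 131 of 152 and 135 of 179 reads in MBT2, against 94 of 119 and 114 of 136 in LM8. The 104-base one had 102 of 129 and 97 of 130 reads in MBT2, against 89 of 122 and 75 of 104 in LM8. A Recql4 deletion of 94 bases, annotated as upstream and listed in MBT2 only with 79 of 87 and 63 of 70 reads, matches an intron of Lrrc14. A Fanca deletion of 70 bases, downstream and in MBT2 only, matches one of Zfp276, and its bases stand in a Zfp276 transcript annotated as a retained intron. It had 18 of 80 and 18 of 91 reads (21.1%), the lowest share of the 4.

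The annotated effect of these deletions went with where their ends were listed. Of the 18 own-strand deletions, 7 needed no move to read GT and AG, and 6 of them were annotated as splice site changes and 1 as a frameshift. The other 11 needed a move of 1 to 5 bases, and 9 of those were annotated as frameshifts and 2 as splice site changes. In the whole lists the splice site share was 88.6% in MBT2 and 87.1% in LM8 with no move, and the frameshift share was 80.6% in MBT2 and 80.6% in LM8 with one. Every Recql4 and Pold1 entry annotated as a frameshift in either list was a long deletion.

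Private protein-altering variants are those of 1 list only that the annotation labels as changing the protein or a splice site. They numbered 6 in MBT2 and 9 in LM8 for the 8 genes. Deletions of 21 or more bases made up 5 of the 6 in MBT2 and 5 of the 9 in LM8. What was left was Pole W1166* in MBT2, and Pold1 R222H, Msh3 A204T, Rad54l E470V and the Ogg1 insertion in LM8. The label alone does not show a changed protein. The 5 long deletions counted in MBT2 each had the length of an annotated intron of their gene. In LM8 the counted Rad54l deletion of 95 bases lies ahead of the coding start. Over all genes with a listed variant, 36.6% in MBT2 and 32% in LM8 had a private protein-altering one. These shares count genes, whereas the 6 and 9 count variants. The members were also chosen with these lists known, so nothing is read from the number of their variants.

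At the 10 sites of the 8 genes in both lists, all of them long deletions, Fisher's exact test (two-sided, reads summed over libraries, Benjamini-Hochberg over 1261 shared sites) called 0, where it called 7.3% of all shared sites. That 7.3% covers every variant type. With long deletions left out and the adjustment redone, the test called 11 of 516 shared sites, a set that holds 0 of the 10. The share called among shared long deletions alone, the like comparison for the 10, was not computed. At an unadjusted p under 0.05 the test passed 2 of the 10, against 13.6% of all shared sites, again of every variant type. One was a Recql4 deletion of 77 bases at chr15:76590804-76590880, which 58 of 75 and 61 of 72 reads carried in MBT2, against 82 of 88 and 79 of 91 in LM8. The difference of MBT2 minus LM8 was -8.99 percentage points (p = 0.0249 by Fisher's exact test, adjusted p = 0.220). The other was the Pold1 76-base deletion, in 69 of 88 and 106 of 129 MBT2 reads against 119 of 136 and 110 of 125 LM8 reads, with a difference of -7.09 points (p = 0.0417 by Fisher's exact test, adjusted p = 0.327). At both sites each MBT2 library lay under each LM8 library, and neither difference passed the adjusted test.

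**Figure D3:**
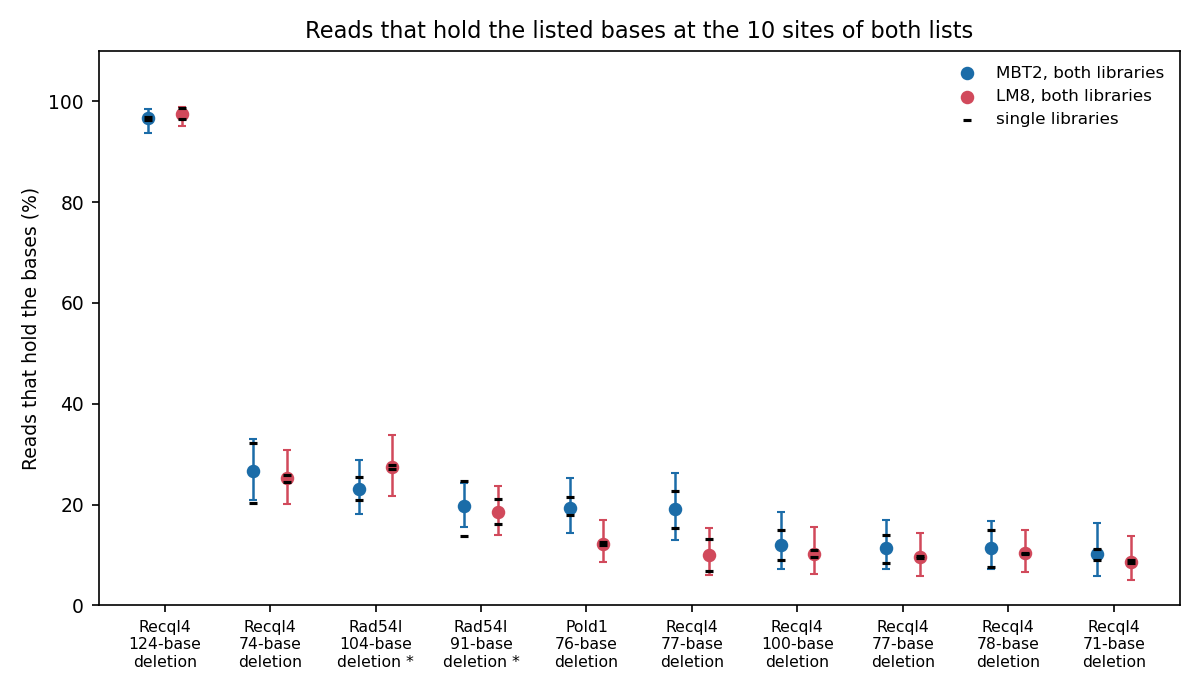
Percent of reads that hold the listed bases (y axis) at the 10 sites of the 8 genes found in both lists (x axis), for MBT2 (blue, left of each pair) and LM8 (red); bars are 95% intervals over both libraries, dashes single libraries, and asterisks opposite-strand reads. The Recql4 124-base site stands apart at 96.6% in MBT2 and 97.5% in LM8, and the Recql4 74-base site is at 26.7% in MBT2 and 25.2% in LM8.

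None of the 5 substitutions of the 8 genes was C>A. In MBT2 this is 0 of 2 private substitutions, which allows a share of up to 84.2% (exact 95% bound), and in LM8 0 of 3, up to 70.8%. On the RNA strand 3 of the 5 were G>A (Pole W1166*, Pold1 R222H and Msh3 A204T), 1 was A>G (Msh3 R1019) and 1 was A>T (Rad54l E470V). Such small numbers cannot show whether the members follow the C>A difference of the lines.

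That difference is large over all genes. Among private substitutions, 248 of 2939 were C>A in MBT2 (8.44%) against 85 of 2572 in LM8 (3.30%), an odds ratio of 2.70 for MBT2 over LM8 (Fisher's exact test, two-sided, adjusted p = 2.07e-15 over the 6 classes). At an allele fraction of 0.1 or more the shares were 18.7% in MBT2 and 5.50% in LM8 (odds ratio 3.95, adjusted p = 4.57e-16 by Fisher's exact test), and below it 2.97% in MBT2 and 2.44% in LM8 (odds ratio 1.23, adjusted p = 0.318). Taken library by library at 0.1 or more, they were 17.7% and 17.9% in MBT2 against 4.76% and 4.99% in LM8. Both libraries of a line share 1 joint call, so their shares are not independent. The Pole and Msh3 R1019 changes of MBT2, at 2.30% and 3.95% of reads, lie in the range of fractions where the C>A share was low in both lines. Neither change is itself C>A, and the fraction of a change does not show whether its gene relates to that class. Whether either relates to it was not tested.

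**Figure D4:**
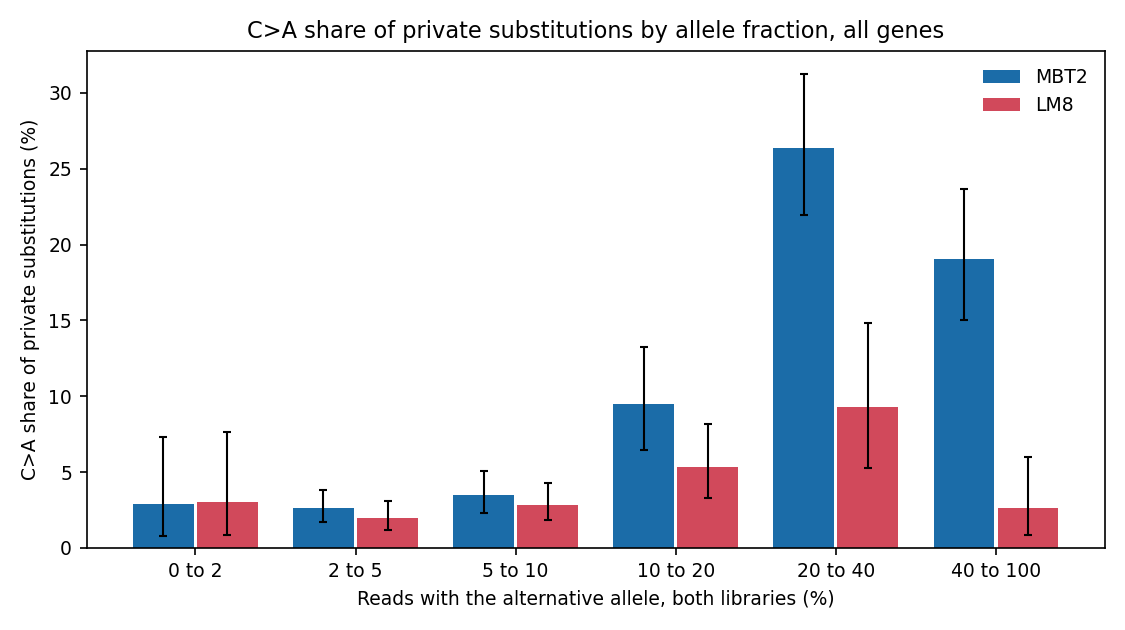
C>A share of private substitutions over all genes (y axis, percent) by the percent of reads with the alternative allele (x axis), MBT2 blue and LM8 red, with exact 95% intervals. The shares lie close together under 10% and reach 26.4% in MBT2 against 9.26% in LM8 between 20 and 40%.

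The C>A changes were then read on the RNA strand, where an altered guanine of the coding strand shows as G>T. Of C>A class changes in genes of known strand, 157 of 218 were G>T in MBT2 (72.0%, 95% interval 65.6 to 77.9) and 33 of 71 in LM8 (46.5%, 95% interval 34.5 to 58.7). The odds ratio was 2.96 (p = 1.54e-04, Fisher's exact test, two-sided), and at fractions of 0.1 or more it was 3.20 (77.3% in MBT2, 51.6% in LM8, p = 0.00684). At 0.1 or more, 91.6% of MBT2 and 70.0% of LM8 C>A changes had alternative reads in both directions. Under 0.1, 33.3% in MBT2 and 33.3% in LM8 did.

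The bases around the C>A changes were set beside the context known for human POLE. Among coding C>A changes at 0.1 or more, the cytosine stood between thymines in 2 of 103 in MBT2 (1.94%, 95% interval 0.236 to 6.84). In LM8 it did so in 0 of 17 (up to 19.5%). In the coding sequence of the transcripts named in the lists, both strands counted, 8.27% of cytosines do. A guanine followed the cytosine in 9.71% in MBT2 and 41.2% (7 of 17) in LM8, against 11.7% in that coding sequence. The 17 LM8 changes are few, and its interval of 18.4 to 67.1% is wide. An adenine followed the cytosine in 38.8% in MBT2 (95% interval 29.4 to 48.9) and 23.5% in LM8, against 30.5% in that coding sequence. A thymine preceded it in 17.5% in MBT2 (95% interval 10.7 to 26.2) and 11.8% in LM8, against 26.2%.

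Across 122 genes of 10 repair and replication lists, which include the 8, variants were found in 43 genes in MBT2 and 37 in LM8. Over all genes, 3933 had a listed variant in MBT2 and 3495 in LM8. Their private substitutions were C>A in 3 of 29 in MBT2 (10.3%, 95% interval 2.19 to 27.4) and in 0 of 26 in LM8 (up to 13.2%). The 3 were Mre11a, the nuclease of the break-sensing complex, in the 3′ UTR in 4 of 30 reads in library 1 and 9 of 32 in library 2 (13.3% and 28.1%); Neil1, a glycosylase for oxidised bases, as the synonymous G173 in 0 of 15 and 2 of 20 reads; and Xrcc1, the scaffold of single-strand break repair, downstream at 92.3% of 26 reads. The Xrcc1 reads all ran forward with a median distance of 1 base from a read end. No list held a private protein-altering substitution at 20% of reads or more in either line. The matching count over all genes is not given here. Private protein-altering variants numbered 22 in MBT2 and 27 in LM8 over the 10 lists, and 8 of the MBT2 and 13 of the LM8 ones were long deletions. They lay in 18 of the 43 genes in MBT2 and 18 of the 37 in LM8. Over all genes with a listed variant, 36.6% in MBT2 and 32% in LM8 held one. Replicative polymerases and their clamp had 7 in MBT2 against 4 in LM8, and damage signalling 5 in MBT2 against 1 in LM8. LM8 had the larger number for nucleotide excision repair (2 in MBT2, 5 in LM8), the Fanconi pathway (3 in MBT2, 5 in LM8), RecQ helicases (2 in MBT2, 4 in LM8), base excision repair (1 in MBT2, 3 in LM8), translesion polymerases (0 in MBT2, 2 in LM8) and mismatch repair (0 in MBT2, 1 in LM8). Homologous recombination had 2 in MBT2 and 2 in LM8, and end joining 0 in MBT2 and 0 in LM8. All of those in RecQ helicases were long deletions in both lines. Variant counts follow which genes were expressed deeply enough to call, which the lists do not give, so these counts were not tested between the lines. No difference of a single list is read as a trait of its pathway.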

How the data were processed

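The authors deposited 1 variant list for each line (VCF 4.2), whose values are reads per allele and library. The 2 libraries of each line went into 1 joint call with Mutect 2.2, filtered with GATK 4.1.5.0, with a minimum median distance of 1 base from a read end, per the file headers; the submitters' processing notes give GATK 4.3.0 beside bcl2fastq 2.17.1.14, cutadapt 1.9.1 and STAR 2.7.9a, without roles. One effect per variant came from SnpEff 5.1d with database 105 of GRCm39, per the file headers. No source used here says how spliced reads were handled ahead of calling.

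The allele fraction is alternative reads over reference plus alternative reads. A deletion counts as long from 21 bases on. The strand of reads came from the counts of read-pair orientations, which matched the gene's strand for 99.6% of coding substitutions in MBT2 and 99.6% in LM8. GENCODE release M21 (GRCm38) gave only gene strands, intron lengths, neighbours and transcript sequences, and no coordinates. A variant is private when the other list lacks it. Tests were Fisher's exact tests, two-sided, with Benjamini-Hochberg adjustment and a threshold of 0.05, and they compare lists and reads, not cultures. The per-site tests and the C>A odds ratio were tried on simulated data. Every variant of the 8 genes is named; of the other repair genes, those with a private C>A substitution or a private protein-altering substitution at a fraction of at least 0.2 are. The members and lists were chosen with earlier results of these data known. Alternatives were other depth, fraction and effect limits and leaving out each library. Python 3.11.15, scipy 1.17.1, pandas 2.3.3, numpy 2.4.6 and matplotlib 3.10.9 were used.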

Additional observations from a re-analysis of the deposited data

How the results depend on the processing

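Of the 71 recomputed main values, 66 kept their direction and their side of the threshold, or for counts stayed within 1.5 times. The 66 include the private C>A counts of the 8 genes, which could not change. For the C>A and G>T odds ratios, leaving out a library kept the sites of the joint call with an alternative read in the other library. Variants were not called again, so values with 1 library left out are not independent of it. The C>A odds ratio stayed between 2.48 and 3.24 over 6 other settings and between 2.66 and 3.0 with 1 library left out, and at fractions of 0.1 or more between 3.25 and 4.94 over 8 settings and between 3.68 and 4.6 with 1 library left out. Below 0.1, where no difference had passed the test, it ranged from 0.984, with MBT2 replicate 2 left out, to 1.42 and from 1.07 to 1.46 over the other settings. The odds ratio of G>T on the RNA strand lay between 2.64 and 3.37 in 7 alternatives, with p of at most 0.0118. Shared sites called between the lines numbered 92, but 11 without long deletions, and 54 to 73 with 1 library left out, lowest without LM8 replicate 1; of the 10 sites of the 8 genes, 0 were called with at least 20 reads in each library or with 1 library left out, and without long deletions none of them remains to test. Private protein-altering variants of the 8 genes fell to 1 in MBT2 and 4 in LM8 without long deletions, and were 6 to 6 in MBT2 and 8 to 9 in LM8 with 1 library left out. The Rad54l E470V share was 1.89% without LM8 replicate 1. For private C>A substitutions of the 8 genes, 0 in both lines, the alternatives can only remove variants and so test nothing. No paired analysis was possible because the lists come from joint calls and each test counts variants or reads of a list, and replicate numbers pair no samples across the lines. With 33 to 190 reads per library in MBT2 and 23 to 167 in LM8, the Pole, Pold1, Msh3 R1019 and Rad54l E470V alleles rest on 1 to 5 reads a library.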
